A study of Saccharomyces cerevisiae with 13 samples.

Results

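The large subunit of the cytosolic ribosome is represented here by 75 genes of the 5449 measured on the arrays. They were taken as every gene whose annotated symbol is RPL followed by a digit, or RPP0, RPP1A, RPP1B, RPP2A or RPP2B, with the brightest probe set kept where a gene had several. RefSeq lists 81 genes with such symbols, and 6 of them had no probe set annotated to them. Of the 75 genes, 64 were read by a probe set named for 1 gene and 11 by a probe set whose suffix marks probes that match more than 1 transcript.

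Ribosomal proteins of the large subunit coat the ribosomal RNA that forms the peptidyl transferase centre, line the tunnel through which the new chain leaves, and build the stalk that recruits translation factors. In budding yeast most of them are encoded by a pair of paralogs, called A and B, left by an ancient duplication of the genome. Their genes are transcribed together in proportion to growth, through Rap1, Fhl1, Ifh1 and Sfp1 under the TOR and protein kinase A pathways, and are known to be turned down in many stresses.

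The RNA came from BY4741, a haploid MATa strain with deletions at HIS3, LEU2, MET17 and URA3, in saturated cultures on YPGE, a medium of glycerol and ethanol that yeast cannot ferment. The groups were 0.05 mM TFM for 1, 2 and 4 h with 2 arrays each, 2% isopropanol for 1, 2 and 4 h with 2, 1 and 2 arrays, and 2 time zero arrays from before treatment. TFM is the lampricide 3-trifluoromethyl-4-nitrophenol, known as an uncoupler of mitochondrial respiration, and the labels give no isopropanol level for its arrays. Time zero carries the isopropanol label too, although the design places it before treatment. The labels call the RNA samples independent without naming separate cultures, so p-values measure the spread between RNA samples, which may be technical.

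The label of the strain was checked first. LEU2, MET17 and URA3 averaged 5.64, 5.53 and 4.89 log2 units over the 13 arrays, under the highest mean of 17 unspiked control probe sets, 5.94, while HIS3, which the strain lacks only in part, averaged 11.5. The 5 genes of MATa cells on the list, MFA1, MFA2, STE2, STE6 and BAR1, averaged 12.0 to 14.0. The 3 genes specific to the opposite mating type averaged less but lay above that control bound, STE3 at 9.11, MF(ALPHA)1 at 7.25 and MF(ALPHA)2 at 6.83. Replicate arrays correlated over all genes at Pearson r of 0.992 to 0.998. For the 75 genes the median standard error of a TFM change was 0.083 log2 units at 1 and 4 h and 0.10 at 2 h, where isopropanol had 1 array, and the number of arrays limits this precision.

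The large subunit genes as a group differed little from isopropanol after 1 and 2 h of TFM and were far lower after 4 h. Their median log2 RMA value, the authors' normalized probe set signal, was 13.95 and 14.01 on the TFM 1 h arrays, against 14.06 and 14.03 in isopropanol. At 2 h it was 13.95 and 13.90 in TFM, against 14.09 on the lone isopropanol array. At 4 h it was 13.09 and 13.22 in TFM, against 14.14 and 14.11 in isopropanol and 14.11 and 14.08 at time zero. The TFM 4 h arrays thus stood apart from the other 11 arrays by more than any 2 replicates differed. On those 2 arrays the median member ranked at percentiles of 83.4 and 85.1 among all genes, against 94.7 and 94.7 in isopropanol. Since the arrays were normalized to each other, every change is relative to the other transcripts. In bulk cultures fewer cells holding a transcript and less of it in each cell cannot be told apart.

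**Figure D1:**
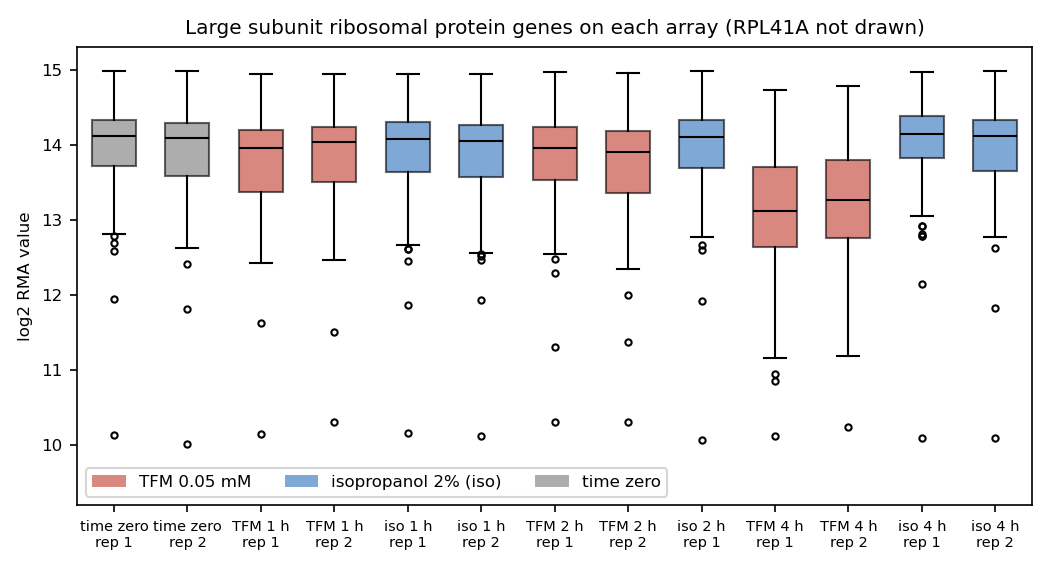
Log2 RMA values of 74 large subunit genes on each of the 13 arrays, coloured by treatment (box: quartiles with the median line, whiskers to 1.5 interquartile ranges, points beyond). RPL41A, which lies near background, is not drawn. The boxes of both TFM 4 h arrays sit about 1 log2 unit under those of isopropanol at 4 h.

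After 4 h of TFM 73 of the 75 genes fell against isopropanol at 4 h and 0 rose, beside 34.0% of all genes that were lower and 30.9% that were higher (limma, Benjamini-Hochberg adjusted p under 0.05 over 5449 genes). The median change of the 75 was -0.82 log2 units and that of all genes -0.012. Changes ran from -1.99 for RPL13A to 0.089 for RPL22B, with quartiles of -1.06 and -0.54. Of the 75 genes 24 fell at least 2-fold, beside 341 of all 5449 genes. Both TFM arrays lay below both isopropanol arrays for 74 of the 75 genes, beside 40.7% of all genes. RPL22B and RPL30 did not pass. A measure of RNA quality, the 3 prime minus 5 prime signal, also differed between the TFM and isopropanol arrays at 4 h. Averaged over 7 control transcripts, the 3 prime probe sets exceeded the 5 prime ones by 1.63 and 1.40 in TFM, against 1.15 and 1.13 in isopropanol, in log2 units. At 1 h this excess was 1.32 and 1.39 in TFM, against 1.42 and 1.34 in isopropanol. Changes of the control transcripts themselves may enter this measure, which was not tested. With this measure as a covariate 65 genes still fell at 4 h and the median was -0.73.

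**Figure D2:**
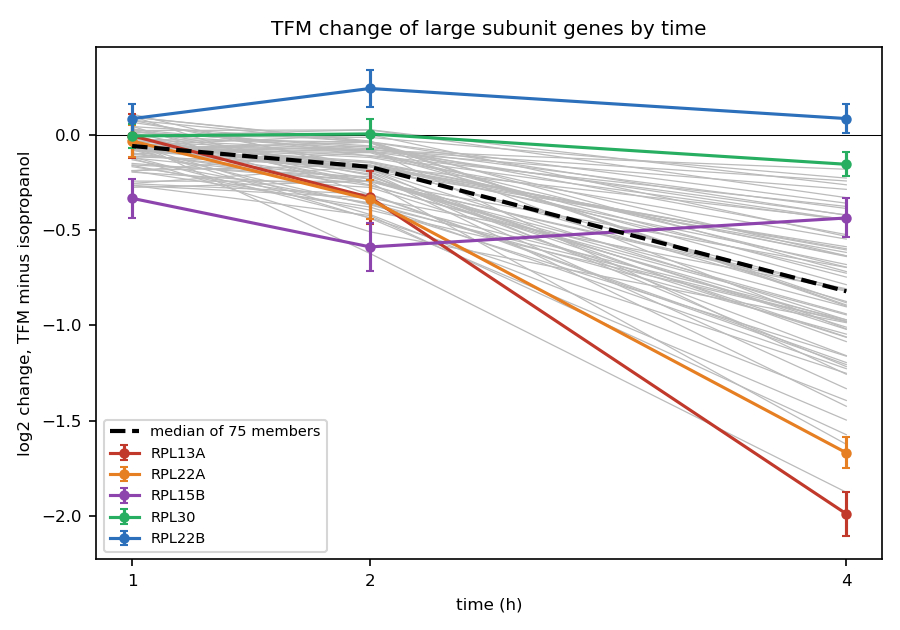
Log2 change, TFM minus isopropanol, at 1, 2 and 4 h for the 75 genes (grey lines), their median (dashed) and 5 named genes with standard errors. The median is -0.056 at 1 h, -0.17 at 2 h and -0.82 at 4 h; RPL22B lies above 0 throughout and RPL15B reaches its own lowest point at 2 h.

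The transcript that fell most at 4 h was RPL13A (YDL082W), one copy of a protein on the outer surface of the subunit. Its values were 10.94 and 11.21 on the TFM arrays, against 13.08 and 13.06 on the isopropanol arrays, a change of -1.99 ± 0.12 (SE; adjusted p = 1.17e-06), or 3.98-fold lower. RPL6B (YLR448W) followed, with 10.86 and 11.18 on the TFM arrays, against 12.81 and 12.98 on the isopropanol arrays (-1.88 ± 0.13, adjusted p = 2.32e-06). In both genes the TFM arrays lay well over 1 log2 unit under the isopropanol arrays, far beyond the gap between replicates. RPL22A (YLR061W), the main copy of a protein that yeast can live without, had 12.33 and 12.50 on the TFM arrays, against 14.08 and 14.09 on the isopropanol arrays (-1.67 ± 0.082, adjusted p = 6.65e-07). RPL27B (YDR471W) had 11.66 and 12.04 on the TFM arrays, against 13.51 and 13.43 on the isopropanol arrays (-1.63 ± 0.13). RPL40B (YKR094C), which encodes ubiquitin fused to a ribosomal protein, had 12.15 and 12.43 on the TFM arrays, against 14.00 and 13.73 on the isopropanol arrays (-1.57 ± 0.14).

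In the next 3, as in 74 of the 75 genes, no TFM array reached any isopropanol array. RPL16B (YNL069C) stood at 12.96 and 12.81 on the TFM arrays, against 14.43 and 14.33 on the isopropanol arrays (-1.50 ± 0.094). RPL24A (YGL031C), whose protein bridges to the small subunit, stood at 12.65 and 13.07 on the TFM arrays, against 14.33 and 14.24 on the isopropanol arrays (-1.43 ± 0.13). RPL9B (YNL067W), a protein near the base of the stalk, stood at 11.16 and 11.75 on the TFM arrays, against 12.91 and 12.78 on the isopropanol arrays (-1.39 ± 0.16, adjusted p = 5.64e-05). In RPL9B and RPL24A the TFM replicates were further apart than in the other 6, and replicate 1 was the lower.

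At the other end, 8 genes changed least, and 6 of them fell by a small amount. RPL22B (YFL034C-A) had 10.12 and 10.24 on the TFM arrays, against 10.09 and 10.10 on the isopropanol arrays, a difference of 0.089 ± 0.078 (adjusted p = 0.341, 95% interval -0.087 to 0.26). RPL30 (YGL030W), whose protein is known to hold back the splicing of its own transcript, had 14.49 and 14.58 on the TFM arrays, against 14.69 and 14.68 on the isopropanol arrays (-0.15 ± 0.064, adjusted p = 0.0591). Its TFM arrays lay just under its isopropanol arrays, and it passed without TFM 4 h replicate 2 (-0.20) and in 5 other settings.

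The other 6 passed, with small changes. RPL3, at the peptidyl transferase centre, changed by -0.18 ± 0.058 (adjusted p = 0.0212), a call lost without either TFM 4 h array (-0.18 in each case) or isopropanol 4 h replicate 1 (-0.16) and with the 3 prime minus 5 prime covariate (-0.16). RPL4A, which reaches into the exit tunnel and was read by a shared probe set, changed by -0.22 ± 0.056. RPL10, needed for the last steps of subunit maturation, changed by -0.24 ± 0.061, and RPL5, which carries the 5S RNA into the subunit, by -0.28 ± 0.062. The stalk genes RPP2B and RPP0 changed by -0.26 ± 0.059 and -0.33 ± 0.068. Under cyclic loess normalization RPL3, RPL4A, RPL10, RPL5 and RPP2B did not pass, with changes of -0.041, -0.084, -0.11, -0.15 and -0.13. With the 3 prime minus 5 prime covariate RPL4A (-0.19), RPL10 (-0.17) and RPL5 (-0.27) did not pass either.

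These small changes went with bright probe sets. The 10 genes with a mean log2 RMA value of 14.5 or more had a median change of -0.27, the 21 genes between 14 and 14.5 one of -0.69, the 22 between 13.5 and 14 one of -0.96, the 12 between 13 and 13.5 one of -1.02 and the 10 under 13 one of -1.11. Across the 75 genes signal and change correlated at Pearson r = 0.14 and Spearman rho = 0.55, and at 0.60 and 0.67 over the 73 left without RPL41A and RPL22B. The points share arrays and normalization, and these values are a description. The brightest value on any array was 15.2. Among the 80 genes outside both subunits with a mean of at least 14.5 the lowest change was -0.65, and among the 880 with a mean of at least 13 it was -2.01. Whether probe saturation took part in the small changes of bright genes was not tested, so a low change of a bright probe set is not shown to be a low change of its transcript.

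**Figure D3:**
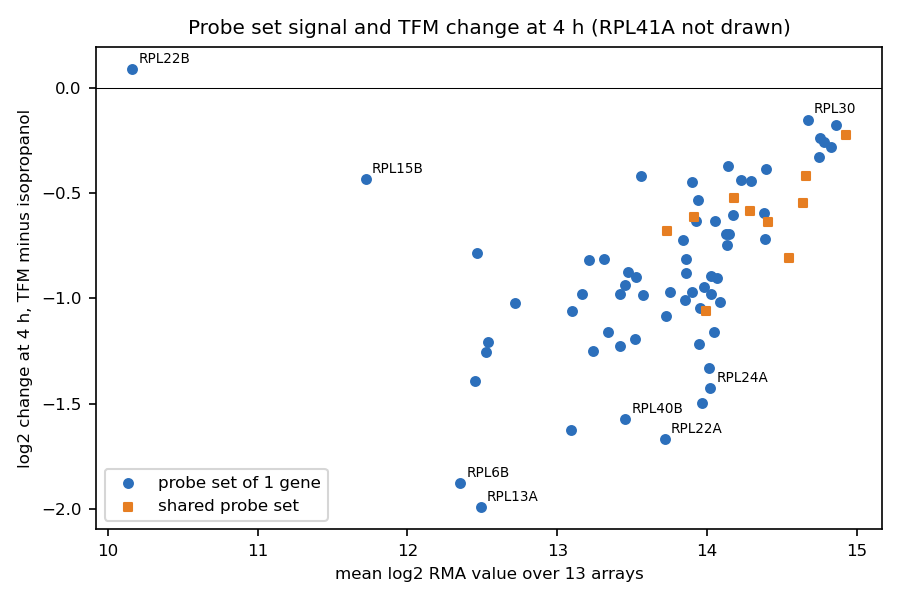
Mean log2 RMA value over 13 arrays (x) and log2 change at 4 h, TFM minus isopropanol (y), for 74 genes, by kind of probe set. Genes with a signal of 14.5 and over lie between -0.81 and -0.15, and RPL22B and RPL15B stand apart as dim genes with little or moderate change.

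By role, the acidic stalk proteins showed a wide spread. P1 and P2 bind P0 as dimers and recruit elongation factors. RPP1B had 13.05 and 13.19 on the TFM arrays, against 14.27 and 14.28 on the isopropanol arrays (-1.16 ± 0.072, adjusted p = 1.61e-06), while RPP1A had 14.06 and 14.05 on the TFM arrays, against 14.50 and 14.37 on the isopropanol arrays (-0.38 ± 0.066, adjusted p = 0.000593). RPP2A changed by -0.72 ± 0.057 and RPP2B by -0.26 ± 0.059 (adjusted p = 0.00341). Each of the 5 stalk genes fell, P0 among them, and RPP1B fell the most. RPL12A and RPL12B, whose protein forms the base of the stalk with P0, fell by 1.06 and 0.94.

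RPL11A and RPL11B, partners of RPL5 on the 5S RNA, changed by -1.16 ± 0.15 and -0.59 ± 0.074. Around the mouth of the exit tunnel RPL25, the docking site of the signal recognition particle, changed by -0.90 ± 0.08, RPL17A and RPL17B by -0.98 ± 0.081 and -0.98 ± 0.10, RPL31A and RPL31B by -0.69 ± 0.10 and -0.79 ± 0.082, RPL35A by -0.52 ± 0.072 and RPL39 by -0.82 ± 0.13. All of these fell. Of the genes without a paralog, RPL28, the site of cycloheximide resistance mutations, changed by -0.60 ± 0.06, RPL29 by -0.60 ± 0.09, RPL32 by -0.69 ± 0.057 and RPL38 by -0.98 ± 0.12. RPL41A, which encodes a minute peptide, was read at 6.24 and 6.25 in TFM, against 6.62 and 6.58 in isopropanol, close to the background controls, where its change of -0.36 ± 0.074 is hard to scale.

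The larger effect at 4 h was itself tested. The TFM effect was lower at 4 h than at 1 h for 67 of the 75 genes (of all genes 26.4% were lower and 22.9% higher). It was lower at 4 h than at 2 h for 61 (of all genes 35.1% passed, 20.2% lower and 14.9% higher), and higher for 0 in either case. The 8 genes that did not pass between 4 h and 1 h were RPL3, RPL10, RPL15A, RPL15B, RPL22B, RPL30, RPL34B and RPL42B.

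At 2 h 7 of the 75 genes fell and 0 rose (9.33%, beside 5.84% of all genes that were lower and 8.30% that were higher), and the median change was -0.17. Both TFM arrays lay below the single isopropanol array for 68 of the 75 genes, beside 38.3% of all genes. RPL15B (YMR121C), a copy of an essential protein deep in the subunit, changed by -0.59 ± 0.13 (adjusted p = 0.0164). Its values were 11.31 and 11.37 in TFM, against 11.92 in isopropanol. RPL6B changed by -0.62 ± 0.15 (adjusted p = 0.0297), with 12.29 and 11.99 in TFM, against 12.76 in isopropanol. The others were RPL16B (-0.44 ± 0.12), RPL21B (-0.43 ± 0.12), RPL14A (-0.34 ± 0.094), RPL9A (-0.51 ± 0.14) and RPL2B (-0.35 ± 0.10). RPL9A had 13.60 and 13.48 in TFM, against 14.04 in isopropanol, its highest value on the 13 arrays, and 13.87 and 13.70 at time zero. The calls of RPL9A and RPL2B were lost in 13 of the 24 other settings, and that of RPL6B in 3. RPL15B was the one that passed in all 24 other settings. Leaving out TFM 2 h replicate 2 left 1 gene, as did leaving out a time zero array. Leaving out an isopropanol 1 h array left 2, and a TFM 1 h array 4. The 3 prime excess was 1.18 and 1.49 on the TFM 2 h arrays, against 1.14 in isopropanol, and with it as a covariate 3 genes passed.

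At 1 h 0 of the 75 genes passed (1.23% of all genes passed, 0.422% lower and 0.807% higher; 2 of the 75 had an unadjusted p under 0.05), and 1 passed against all isopropanol groups. Changes ran from -0.33 to 0.11 with a median of -0.056, which was -0.017 without TFM 1 h replicate 1 and -0.081 without TFM 1 h replicate 2. Both TFM arrays lay below both isopropanol arrays for 36 genes (48.0%, beside 26.5% of all genes). RPL15B had the lowest change, with 11.63 and 11.51 in TFM, against 11.87 and 11.93 in isopropanol (-0.33 ± 0.10, adjusted p = 0.142). At 4 h it had 11.51 and 11.59, against 12.14 and 11.83 (-0.43 ± 0.10, adjusted p = 0.00418). Its arrays did not overlap at any of the 3 times, and its change at 4 h did not differ detectably from that at 2 h (difference 0.15 ± 0.16, adjusted p = 0.505, 95% interval -0.21 to 0.52).

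In isopropanol without TFM 0 of the 75 genes passed in limma against time zero at 1, 2 or 4 h (0% of all genes at each time; 5, 0 and 1 of the 75 had an unadjusted p under 0.05). The median changes were -0.038, 0.014 and 0.024. RPL6B had 12.45 and 12.55 after 1 h of isopropanol, against 12.90 and 12.84 at time zero (-0.37 ± 0.13, adjusted p = 0.669), and RPL13A had 12.60 and 12.58, against 12.96 and 12.89 (-0.33 ± 0.12, adjusted p = 0.669). In both genes the arrays of 1 h lay below those of time zero without passing. RPL41A had -0.25 at 1 h. The smallest p-values at 2 h belonged to RPL9A (0.26), RPL31A (0.18) and RPL36A (0.20), and at 4 h to RPL31B (0.21), RPL13A (0.15) and RPL9B (0.19), with adjusted p = 1.00 at 2 h and 0.999 at 4 h.

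For 29 pairs both copies had a probe set, and both fell at 4 h in 28 of them, the exception being RPL22. Whether the copies changed unequally was tested on the A minus B difference of each pair, added as rows to the table of all genes. At 4 h 21 of the 29 pairs differed (72.4%, beside 65.0% of all rows in that fit, which is not far below), the A copy falling more in 11 and the B copy in 10. Among the 24 pairs read by probe sets of 1 gene on both sides, 17 differed. The median size of the difference was 0.46 log2 units. Probe sets of near-identical copies may still bind each other's transcripts, which was not tested, and the levels of 2 copies cannot be set against each other.

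**Figure D4:**
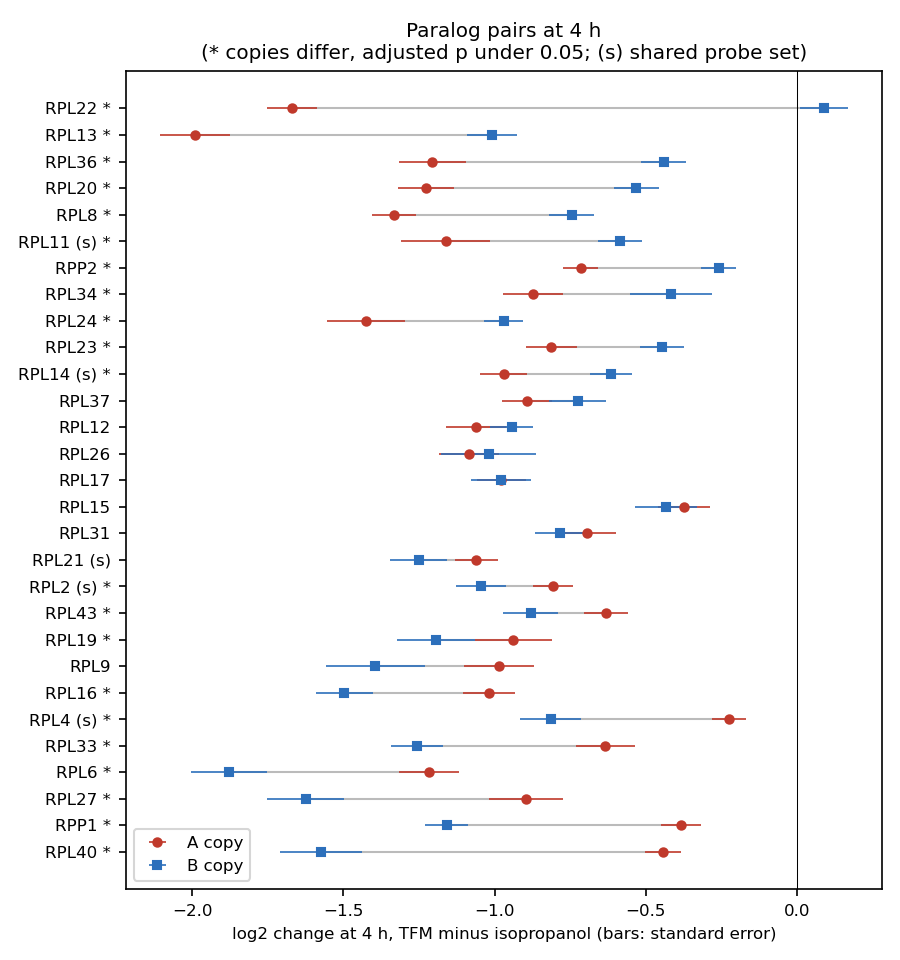
Log2 change at 4 h, TFM minus isopropanol, of the A copy (circle) and the B copy (square) of 29 pairs, with standard errors, ordered by the A minus B difference. RPL22 at the top differs by -1.76 and RPL40 at the bottom by 1.13; the copies of RPL17 lie on each other.

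The pair that differed most was RPL22. RPL22A lost more than 1.5 log2 units while RPL22B, whose splicing is known to be restrained by the Rpl22 protein, did not pass in either direction, and the TFM changes of the copies, A minus B, differed by -1.76 ± 0.083 (adjusted p = 6.28e-07). The difference had already passed at 2 h (-0.58 ± 0.10, adjusted p = 0.00771), when RPL22A had 13.79 and 13.65 in TFM, against 14.06 in isopropanol, and RPL22B had 10.31 and 10.30 in TFM, against 10.06 in isopropanol. At 2 h the TFM arrays were thus below isopropanol for the A copy and above it for the B copy. The changes of the copies differed more at 4 h than at 2 h (-1.17 ± 0.13, adjusted p = 0.00035).

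In RPL40, the ubiquitin fusion, the copies ran the other way round. RPL40A had 13.89 and 13.95 on the TFM arrays, against 14.38 and 14.34 on the isopropanol arrays, a change of -0.44 ± 0.06, against -1.57 ± 0.14 for RPL40B, and the difference was 1.13 ± 0.13 (adjusted p = 5.75e-05). In RPL13 the A copy fell by 1.99 and RPL13B, with 12.99 and 13.21 on the TFM arrays, against 14.14 and 14.08 on the isopropanol arrays, by 1.01 (difference -0.98 ± 0.08, adjusted p = 5.98e-06). RPP1A fell less than RPP1B by 0.77 ± 0.089 (adjusted p = 4.92e-05). In RPL36 the A copy fell more (-1.21 against -0.44, difference -0.77 ± 0.076).

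RPL27, RPL20 and RPL6 completed the 8 largest differences. RPL27A changed by -0.90 and RPL27B by -1.63 (difference 0.73 ± 0.10, adjusted p = 0.000127). RPL20A changed by -1.23 and RPL20B by -0.53 (-0.70 ± 0.067, adjusted p = 1.63e-05), and RPL6A by -1.22 and RPL6B by -1.88 (0.66 ± 0.072, adjusted p = 3.4e-05). Each of these 8 differences passed in every other setting that could be run. In 18 of the 21 pairs that differed the brighter probe set was the one that changed less, and what signal strength contributes was not tested.

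**Figure D5:**
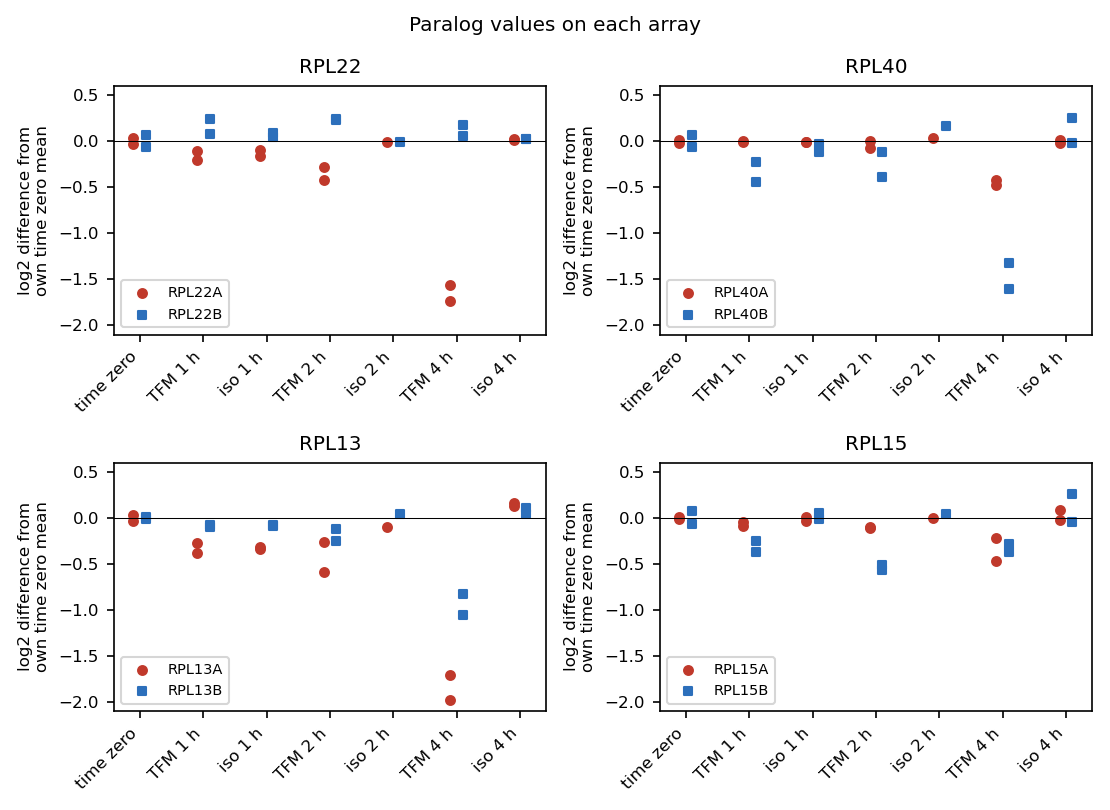
Log2 RMA value of each copy minus its own time zero mean on every array, for RPL22, RPL40, RPL13 and RPL15 (circles A, squares B; 1 point per array). RPL22A drops on the TFM 4 h arrays while RPL22B stays near 0, and RPL15B is low on all TFM arrays.

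At 2 h 4 pairs differed (13.8%, beside 14.2% of all rows), which is the background share, and 1 did without TFM 2 h replicate 2. Besides RPL22 they were RPL20 (-0.36 ± 0.082, adjusted p = 0.0204), RPL6 (0.44 ± 0.088, adjusted p = 0.0127) and RPL15 (0.48 ± 0.12, adjusted p = 0.0272). In RPL15 the B copy passed at 2 h and the A copy did not, as RPL15A had 14.11 and 14.12 in TFM, against 14.22 in isopropanol. At 4 h its 2 copies stood at -0.37 ± 0.086 and -0.43 ± 0.10. At 1 h 0 pairs differed (1.20% of all rows), and in isopropanol against time zero 0 did at any time.

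In 8 pairs no difference was detected at 4 h. The 4 with the smallest differences were RPL17 (95% interval of the A minus B difference -0.19 to 0.19), RPL15 (-0.15 to 0.28), RPL26 (-0.33 to 0.20) and RPL31 (-0.12 to 0.30). These intervals leave room for an unequal change of the size of their bounds, so the copies are not shown to change alike. RPL9, with changes of -0.99 and -1.39, missed the threshold (adjusted p = 0.0507), as did RPL21 (adjusted p = 0.0532), RPL37 (adjusted p = 0.102) and RPL12 (adjusted p = 0.223).

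The choice of probe set altered several of these values. For 7 genes the array holds both a probe set of 1 gene and a shared one. RPL18B changed by -0.64 ± 0.069 on the brighter shared probe set and by -1.85 ± 0.21 on its own (adjusted p = 4.11e-05). Its own probe set read 9.07 and 9.30 in TFM, against 11.14 and 10.94 in isopropanol. RPL21A changed by -1.06 ± 0.072 on the shared and -1.52 ± 0.11 on its own probe set, RPL2A by -0.81 ± 0.066 and -1.13 ± 0.08, and RPL14B by -0.62 ± 0.07 and -0.84 ± 0.12. In each of the 7 genes the shared probe set gave the smaller fall. RPL8A (-1.20 ± 0.09 shared, -1.33 ± 0.072 own), RPL11B (-0.59 ± 0.074, -0.62 ± 0.074) and RPL20B (-0.33 ± 0.094, -0.53 ± 0.074) differed by less. On their own probe sets RPL18B and RPL21A fell more than RPL16B, RPL24A and RPL9B did. Which genes are listed as falling most thus depends on this choice.

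With probe sets of 1 gene alone, 67 of 69 genes fell at 4 h and 19 of 28 pairs differed. In the main fits 34.0% of all genes were lower at 4 h and 65.0% of all rows with the pairs passed, which is near the share of pairs. The RPL21 difference then turned from 0.19 to -0.27 and passed (adjusted p = 0.0121), and the RPL2 difference turned from 0.24 to -0.084 and no longer passed (adjusted p = 0.381). RPL14 no longer passed at -0.13 (adjusted p = 0.258), and RPL11 still did at -0.54. For RPL1B, RPL4A, RPL7A, RPL35A, RPL41A and RPL42B the shared probe set was the only one, so their values may include the transcripts of their partners.

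Some of these genes lie next to another ribosomal protein gene in the RefSeq table, a comparison chosen after the values had been seen. In 8 such pairs with both genes measured, the changes at 4 h differed in 8 (65.1% of all rows passed in that fit). RPL24A and RPL30, transcribed away from each other from the stretch between them on chromosome VII, changed by -1.43 and -0.15, a difference of -1.27 ± 0.12 (adjusted p = 1.52e-05). RPL13A and RPP1A, which converge on chromosome IV, differed by -1.61 ± 0.13 (adjusted p = 6.33e-06), and RPL13A and its divergent neighbour RPS16B by -0.84 ± 0.085 (adjusted p = 2.24e-05). RPL13B and RPS16A, the corresponding neighbours on chromosome XIII, differed by -0.30 ± 0.10 (adjusted p = 0.0255). RPL39 and RPS22A differed by 0.33 ± 0.089 (adjusted p = 0.00869).

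The small subunit was measured on the same arrays. At 4 h 49 of its 52 measured genes fell and 0 rose, with a median of -0.85, beside 73 of 75 and -0.82 for the large subunit. At 2 h 1 of 52 fell, with a median of -0.19, beside 7 of 75 and -0.17. Of all genes 34.0% were lower at 4 h and 5.84% at 2 h. Of 21 small subunit pairs 17 differed at 4 h (81.0%, beside 72.4% of the large subunit pairs), with a median size of 0.51. In the fit with the large subunit pairs 65.0% of all rows passed. The largest small subunit difference was that of RPS26 at 1.13. The difference between the medians of the subunits, 0.033 at 4 h, changed sign with the array left out and has no settled direction: it was -0.082 without TFM 4 h replicate 1 and 0.12 without TFM 4 h replicate 2.

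Most transcripts of the regulators of ribosomal protein genes were higher at 4 h. Of 19 measured, 14 rose, 1 fell and 4 did not pass, with a median of 0.33, beside 30.9% of all genes that were higher. Among the activators, IFH1 changed by 0.91 ± 0.18 (adjusted p = 0.00133), FHL1 by 0.84 ± 0.14, SFP1 by 0.64 ± 0.07 and RAP1 by 0.56 ± 0.083. CRF1, a corepressor that displaces Ifh1, changed by 0.49 ± 0.16, and the repressors of ribosome biogenesis genes TOD6, DOT6 and STB3 by 1.18 ± 0.12, 0.66 ± 0.07 and 0.69 ± 0.094. ABF1, a general factor that takes the place of Rap1 at a few ribosomal protein genes, was the one that fell (-0.81 ± 0.10, adjusted p = 5.56e-05). HMO1, a high mobility group protein at many of these promoters, stood at -0.18 ± 0.08 (adjusted p = 0.0756). Smaller rises at 4 h were those of MRS6 (0.48), YAK1 (0.33), SCH9 (0.33), UTP22 (0.27), REB1 (0.23) and TPK2 (0.18). At 2 h 1 of the 19 rose and at 1 h 0 passed.

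Transcripts for proteins that escort or load large subunit proteins, or mature the subunit, were mostly lower. At 4 h 11 of 14 fell and 2 rose, with a median of -0.62, beside 34.0% of all genes that were lower. RRB1, the chaperone of Rpl3, changed by -1.33 ± 0.12, and ACL4, the chaperone of Rpl4, by -0.23 ± 0.068. SYO1, which brings Rpl5 and Rpl11 into the nucleus together, changed by -0.90 ± 0.11, while SQT1, the chaperone of Rpl10, was one of the 2 that rose (0.99 ± 0.12, adjusted p = 5.4e-05). MRT4, which holds the place of P0 during assembly, changed by -0.73 ± 0.086, and YVH1, which removes it, by -1.32 ± 0.11. The remaining changes were LSG1 (-0.79), LOC1 (-0.68), TIF6 (-0.56), NMD3 (-0.47), ARX1 (-0.46) and BCP1 (0.35). At 2 h 4 of the 14 rose and 0 fell, beside 8.30% of all genes that were higher and 5.84% that were lower. REI1 rose by 0.83 ± 0.16 (adjusted p = 0.0103), PUF6 by 0.80 ± 0.10, MRT4 by 0.53 ± 0.10 and ACL4 by 0.31 ± 0.084. For ACL4 the TFM 2 h arrays read 10.86 and 10.79, against 10.51 on the lone isopropanol array, its lowest value on any array. At time zero ACL4 read 10.86 and 10.83, so its TFM 2 h arrays lay close to time zero. For REI1, PUF6 and MRT4 both TFM 2 h arrays lay above both time zero arrays. Each of these genes also read lower on the lone isopropanol array than at time zero. REI1 had 9.47, against 9.78 and 9.82, PUF6 10.70, against 11.06 and 11.06, and MRT4 10.30, against 10.41 and 10.36. Their rises at 2 h were thus smaller against time zero than against isopropanol. At 4 h PUF6 stood at -0.93 ± 0.08 and REI1, which did not pass, at 0.24 ± 0.13. Of 5 other neighbours of the ribosome 4 fell at 4 h, among them STM1, which clamps idle ribosomes, at -0.92 ± 0.066, RPS31 at -0.29, and the elongation factor genes YEF3 at -0.61 ± 0.068 and EFT2 at -0.23, and the polyubiquitin gene UBI4 rose by 0.28 ± 0.084.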

How the data were processed

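The authors deposited log2 RMA values for 13 arrays (5900 probe sets), with RMA named in the submitters' processing notes and its version not given in the sources used here. RMA corrects background, normalizes arrays to a common distribution and summarizes probes, so values are relative. Probe sets were joined to RefSeq R64 names by gene ID, leaving 5449 genes. One limma model (limma 3.58.1, R 4.3.3) had a mean for each of 7 groups over all 13 arrays, moderated with eBayes defaults (3.52 prior and 6 residual degrees of freedom) and two-sided p-values adjusted by Benjamini-Hochberg over all genes. For isopropanol at 2 h, with its single array, the spread was borrowed from the replicated groups. Paralog and neighbour differences were added as rows to that table, giving 5478 and 5486 rows.

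Members, gene lists and the rule for named genes were chosen with earlier results of these data known. The rule named the 8 largest falls, the 8 smallest changes and all genes not passing at 4 h, up to 10 passing genes at 1 and 2 h, the 8 largest and 4 smallest pair differences, the stalk and RPL40 genes, and, in isopropanol, the 3 of smallest p. Other members are named by role. Promoter motifs were not analysed here. On simulated data of 5449 genes the model recovered 26.9, 97 and 97% of genes changed by -0.3, -0.8 and -1.5 log2 units at 4 h, with 6 false among 153 calls. Noise was drawn independently for each gene, and few genes were changed, whereas 64.9% of all genes passed at 4 h in the data. The adjusted threshold was thus stricter in the simulation, and these shares do not measure recovery in the data. The alternatives tried were other normalizations, variance settings, controls, covariates and probe sets, a filter on dim genes, a replicate block and leaving out each array.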

Additional observations from a re-analysis of the deposited data

Results flagged for a closer look

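The TFM effect on large subunit genes differed between times by a test of the difference itself. It was lower at 4 h than at 1 h for 67 of 75 genes, beside 26.4% of all genes, and lower at 4 h than at 2 h for 61 of 75, beside 20.2%. The 3 prime minus 5 prime difference also differed between the TFM 4 h and isopropanol 4 h arrays, and with it as a covariate the counts were 50 and 55.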

How the results depend on the processing

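The fall at 4 h held under all 25 other settings, with 65 to 74 genes lower and 0 higher, and 15 to 23 pairs differed. The median at 4 h, -0.82, moved by more than the spread between replicates (SD 0.045) to -0.75 under cyclic loess, -0.87 without the dimmest 25% of genes, -0.73 with the 3 prime minus 5 prime covariate, -0.88 with the mean of a gene's probe sets and -0.90 with probe sets of 1 gene alone. Leaving out 1 array gave -0.89 to -0.77 and 71 to 73 genes. The count at 2 h, 7, was not stable: 16 with a trended and robust variance, 15 against time zero, 22 against all isopropanol groups (21 lower and 1 higher), 3 with the 3 prime minus 5 prime covariate (median -0.10) and 1 to 9 when 1 array was left out. At 1 h 1 gene passed against all isopropanol groups. The 33 calls at 4 h among regulators, escorts and other ribosome neighbours (16 lower, 17 higher) numbered 23 (11 lower, 12 higher) with the covariate, 27 without the dimmest 25% of genes, 27 to 34 when 1 array was left out, the lowest without TFM 4 h replicate 1, and 29 to 34 in the rest. Pairs that differed at 2 h numbered 4, 7 against all isopropanol groups and 1 to 5 when 1 array was left out.

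The large minus small subunit difference of 0.033 became -0.025 without the dimmest 25% of genes, -0.013 against all isopropanol groups, -0.040 with the covariate, -0.048 with probe sets of 1 gene and -0.082 to 0.12 when 1 array was left out. Differences that changed sign were RPL2 (-0.084, probe sets of 1 gene) and RPL21 (-0.27, probe sets of 1 gene; -0.037, mean of probe sets). Among pairs that did not differ, signs turned for RPL17 (-0.027 against all isopropanol groups, -0.013 with the covariate, -0.039 to 0.041 when 1 array was left out), RPL15 (-0.016 against time zero, -0.038 to 0.16 when 1 array was left out), RPL26 (-0.18 to 0.054 when 1 array was left out) and RPL31 (-0.071 against time zero, -0.027 against all isopropanol groups). The RPL2 call was lost in 10 settings. The causes of these shifts were not tested.

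Replicate deviations of TFM and isopropanol arrays correlated at -0.23 at 1 h and -0.093 at 4 h, so replicate numbers were not taken to pair them. With a replicate block 73 genes passed at 4 h, 2 at 2 h and 0 at 1 h, and 21 pairs differed at 4 h. Among the time zero and isopropanol groups the correlations were 0.27 to 0.60, and the block gave 0 genes against time zero. Between TFM 2 h and TFM 4 h the correlation was -0.47, and between time zero and TFM 1 h it was -0.25. With the TFM 1 h numbers crossed, a setting chosen after seeing the data, 73, 4 and 0 genes passed. A block with the TFM 2 h or TFM 4 h numbers crossed was not run. The number of arrays limits all counts, and the lone isopropanol 2 h array could not be left out of its own comparison.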

Other observations

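Beside the protein genes, 17 control probe sets read residual ribosomal RNA. Their median log2 value was 9.66 and 10.90 on the TFM 4 h arrays, against 9.92 and 8.66 on the isopropanol 4 h arrays, so the groups overlapped. It was 8.79 and 9.94 in TFM at 2 h, against 7.50 in isopropanol, the lowest of all 13 arrays. What residual ribosomal RNA contributes to the 2 h comparison was not tested.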
